A study of Homo sapiens with 4 samples.

Results

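Described here are 8 human genes: BCL11A, ZBTB7A, MYB, HBS1L, LIN28B, IGF2BP1, IGF2BP2 and IGF2BP3. Apart from HBS1L, they are known for switching off fetal haemoglobin or for keeping cells in a fetal state. HBS1L is the neighbour of MYB and was included for the enhancers between them. All 8 genes were chosen by name, with earlier results of these data known. Every H3K27ac peak within their gene bodies and 50 kb on each side was taken, together with all peaks between HBS1L and MYB. Peaks that overlapped by at least 1 bp between libraries were joined into regions, which gave 41 regions of the 33834 in the whole series. The windows held 28 of 23413 peaks in the control, 30 of 23819 in hairpin 1 and 31 of 27007 in hairpin 2.

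ChIP-seq of H3K27ac, the acetylated lysine of histone H3 found at enhancers and promoters in use, was done in K562, an established human line from a chronic myeloid leukaemia that makes embryonic and fetal globins. The cells carried a non-targeting shRNA (shNT, the control) or an shRNA against TFAM (TFAM-sh1, hairpin 1, or TFAM-sh2, hairpin 2), the packaging factor of mitochondrial DNA. No other treatment, time or clone is given in the labels, and no group is free of an shRNA. Each condition was 1 library with 1 peak list, so there is no spread between replicates, no test and no p-value anywhere. The level of TFAM was not measured by these files.

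The sources used here give no read depth. Of 8 erythroid and K562 marker genes, 5 had a peak within 1 kb of the start site in every list, 2 (TAL1 and GYPC) had none in hairpin 2 and GATA1 had none in any list. Of 4 markers of other lineages, LYZ, of myeloid cells, had such a peak in every list, the lymphoid genes CD3D and CD79A had one in hairpin 1 alone, and ALB, of liver, had none. The lists ended at widths of 8704 bp in the control, 8781 bp with hairpin 1 and 8841 bp with hairpin 2. GATA1, which K562 cells are known to express strongly, had no promoter peak, so a missing peak does not show that a site was unmarked. Peaks of 7 kb or wider made up 0.812% of the control list, 0.991% of that of hairpin 1 and 1.21% of that of hairpin 2. Of these wide peaks, 13.6% in hairpin 1 and 14.1% in hairpin 2 overlapped no control peak, against 22.5% and 27.7% of all peaks and 5.52% and 6.20% of those of 3 to 5 kb. Of the wide control peaks, 20.5% had no partner in hairpin 1 and 25.3% none in hairpin 2, against 21.0% and 16.6% of all control peaks.

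**Figure D1:**
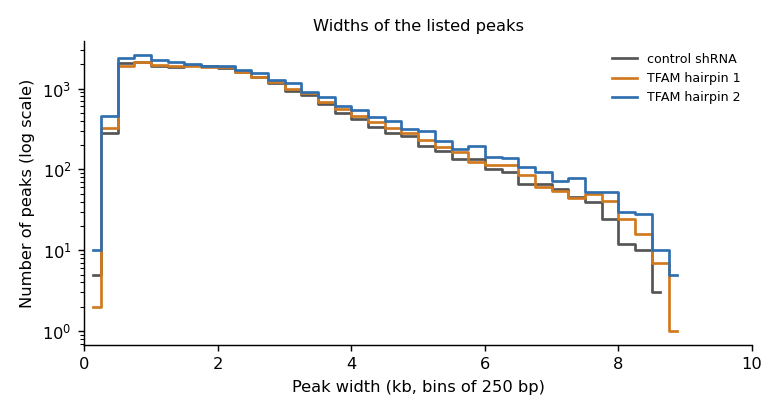
Number of peaks (log scale) by peak width in kb, in bins of 250 bp, for each of the 3 libraries (lines). In every library the counts rise up to widths of about 1 kb and are far lower among the widest peaks, and no list holds a peak wider than 8841 bp.

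BCL11A and ZBTB7A are zinc-finger repressors that bind the fetal gamma-globin genes in adult red cells and recruit corepressors such as NuRD. MYB is a transcription factor of erythroid progenitors, and the interval between it and HBS1L, a ribosome-rescue GTPase, holds distal enhancers of MYB where common variants are associated with fetal haemoglobin. LIN28B is a fetal RNA-binding protein that blocks maturation of let-7 microRNAs. IGF2BP1, IGF2BP2 and IGF2BP3 are RNA-binding proteins that stabilise growth-related mRNAs and are themselves let-7 targets.

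Sequences from the GRCh37 genome (hg19) are shown first, at sites where the lists differed and at others for comparison. GATAA or its reverse complement TTATC, the core letters read by GATA factors, is in capitals. The first is a start site listed in both hairpins only, that of LIN28B (chr6:105404682-105404981, plus strand). The next pair are the start sites of IGF2BP3 (chr7:23510111-23510410, minus strand), listed in none, and MYB (chr6:135502146-135502445, plus strand), listed in all. Each is the 300 bases before the start site of the canonical transcript, read 5′ to 3′ along the gene.
LIN28B: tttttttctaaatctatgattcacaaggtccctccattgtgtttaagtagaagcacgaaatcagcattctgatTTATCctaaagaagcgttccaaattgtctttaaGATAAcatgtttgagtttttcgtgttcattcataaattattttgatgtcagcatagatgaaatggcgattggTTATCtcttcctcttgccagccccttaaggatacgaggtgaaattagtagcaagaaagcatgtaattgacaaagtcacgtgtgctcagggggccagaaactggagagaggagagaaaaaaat
IGF2BP3: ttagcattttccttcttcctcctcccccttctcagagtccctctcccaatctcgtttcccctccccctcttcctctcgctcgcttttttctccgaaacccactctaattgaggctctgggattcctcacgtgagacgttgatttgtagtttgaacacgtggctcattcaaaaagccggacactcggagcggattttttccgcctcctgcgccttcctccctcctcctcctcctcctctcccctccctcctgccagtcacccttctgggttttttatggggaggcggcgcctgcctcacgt
MYB: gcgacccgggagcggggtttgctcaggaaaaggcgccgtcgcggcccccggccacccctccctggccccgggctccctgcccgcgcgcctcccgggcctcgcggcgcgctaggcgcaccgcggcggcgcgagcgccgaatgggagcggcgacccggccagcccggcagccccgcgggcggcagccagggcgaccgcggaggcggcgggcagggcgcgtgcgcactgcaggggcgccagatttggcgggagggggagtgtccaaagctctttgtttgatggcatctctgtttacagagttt

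The other pair are the central 300 bases of a region 71 kb upstream of MYB, listed in hairpin 1 only (chr6:135431333-135431632), and of the region 34.5 kb upstream, listed in all libraries (chr6:135467833-135468132). Both are intergenic and are given on the plus strand. In hairpin 2 the region 34.5 kb upstream was 2 peaks, and the 300 bases shown lie between them. That stretch itself was therefore under a peak in the control and hairpin 1 only.
MYB 71 kb upstream: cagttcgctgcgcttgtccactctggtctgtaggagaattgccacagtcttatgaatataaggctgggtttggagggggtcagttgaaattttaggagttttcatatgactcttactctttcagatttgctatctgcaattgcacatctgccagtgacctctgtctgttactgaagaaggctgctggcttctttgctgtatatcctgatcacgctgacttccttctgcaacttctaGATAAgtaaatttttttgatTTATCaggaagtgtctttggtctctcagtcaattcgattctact
MYB 34.5 kb upstream: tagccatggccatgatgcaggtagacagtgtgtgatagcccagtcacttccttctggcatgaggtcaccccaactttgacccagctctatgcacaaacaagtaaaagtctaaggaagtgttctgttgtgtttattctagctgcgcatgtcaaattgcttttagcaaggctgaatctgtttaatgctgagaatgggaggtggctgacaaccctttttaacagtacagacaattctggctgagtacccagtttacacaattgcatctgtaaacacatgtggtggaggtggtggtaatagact

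Searched on both strands, GATAA occurred 3 times in the LIN28B stretch and 0 times in those of IGF2BP3 or MYB. ZBTB7A and HBS1L, listed in all libraries, held it 1 time each, so 42.9% of the 7 promoters searched had it. Of 20144 protein-coding genes, 19.9% held it in the same 300 bases. CCACCC, a motif read by KLF factors, occurred 3 times before IGF2BP2, 2 times before BCL11A and 1 time each before MYB and HBS1L. It occurred 0 times before LIN28B, IGF2BP3 and ZBTB7A. So 57.1% of the 7 promoters searched and 39.5% of all promoters held it. TGACCA, a motif bound by BCL11A in the gamma-globin promoters, was in none of the 7 promoters searched and in 9.45% of all. The region 71 kb upstream of MYB held GATAA 2 times in its central 300 bases and the region 34.5 kb upstream 0 times, where 31.2% of 33798 regions held it. Over their full widths of 1438 and 6022 bp they held it 5 and 8 times. That is 3.48 and 1.33 times per kb, beside 1.47 in all regions. These matches describe letters in a window and say nothing of binding.

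The LIN28B promoter also differed in composition: its 300 bases had 37.3% G+C and 6 CpG dinucleotides. The other 6 promoters measured had between 55.7% (IGF2BP3) and 78.7% (IGF2BP2) G+C and 15 to 42 CpG. The medians over all protein-coding promoters were 62% and 20 CpG, and those over the 308 promoters gained in both hairpins 64.7% and 20 CpG.

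At the start sites, 4 of the 8 genes had a peak in every list, and LIN28B gained one in both hairpins. A promoter counted as marked when a peak lay within 1 kb of the canonical start site, as gained when both hairpins and not the control had one, and as lost when the control alone had one. IGF2BP1 had a peak in hairpin 1 alone, BCL11A in hairpin 2 alone, IGF2BP3 in no list, and none of the 8 was lost. Among 20149 protein-coding start sites, 50.3% were marked in every list, 1.53% were gained, 0.829% were lost, 1.65% were marked in hairpin 1 alone, 1.68% in hairpin 2 alone and 41.4% in none. The 4 of 8 in every list is close to the share of all genes. ZBTB7A, MYB, HBS1L and IGF2BP2 made up the 4.

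**Figure D2:**
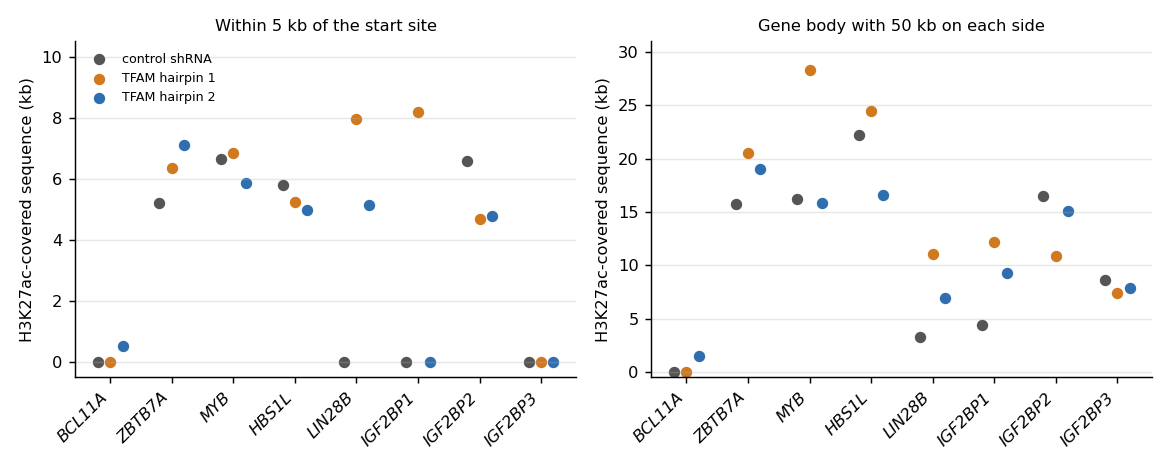
Sequence covered by H3K27ac peaks (kb) for each gene in each library (1 point per library), within 5 kb of the start site (left) and over the gene body with 50 kb on each side (right). LIN28B has 0 bp near its start site in the control, 7967 bp with hairpin 1 and 5134 bp with hairpin 2.

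Among the repressors, BCL11A carried almost no listed H3K27ac. Its window (chr2:60627655-60831602) had 0 bp covered in the control, 0 bp with hairpin 1 and 1520 bp with hairpin 2. The hairpin 2 sequence came from a pair of short peaks. The first, chr2:60780225-60780753, spanned 529 bp just downstream of the start site at score percentile 28.5 of its list. The second, chr2:60688564-60689554, spanned 991 bp over exon 4, 91.7 kb into the gene, at percentile 22.3. Percentiles here rank the authors' peak score within a list, with 100 the highest, and are not compared between lists. Intron 2 of BCL11A, 77.1 kb long, held 0 bp in all libraries. This includes the 15.0 kb stretch 50 to 65 kb downstream of the start site, where the erythroid enhancer with its sites at 55, 58 and 62 kb lies. The nearest control peak to the start site was 202338 bp away, and the nearest hairpin 1 peak 202320 bp.

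ZBTB7A was marked in every library. The promoter peak covered 5213 bp in the control (chr19:4063611-4068823), 6356 bp with hairpin 1 and 7354 bp with hairpin 2. It was the widest in hairpin 2 and the narrowest in the control, and stood at percentiles 92.8, 76.1 and 64.1 of the respective lists. A region in intron 1, 7.4 kb from the start site, covered 3184, 3436 and 4326 bp in the same order of libraries. An intergenic region 11.3 kb upstream of the start site was also in all lists, with 2180, 2891 and 2216 bp. Farther upstream the lists differed at low scores. A region 17.1 kb upstream had 998 bp in the control, 2458 bp with hairpin 1 and 0 bp with hairpin 2, and one 22.5 kb upstream had 0, 962 and 747 bp. All 4 of these peaks stood at percentile 12.9 or lower. The window (chr19:3993301-4116897) also takes in the promoter of PIAS4, a SUMO ligase, with 3510, 3830 and 4428 bp.

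MYB had a promoter peak of 6635 bp in the control (chr6:135500604-135507238), 7122 bp with hairpin 1 and 5941 bp with hairpin 2. It stood at percentiles 56.4, 57.1 and 58.7 of the lists. HBS1L had a promoter peak of 5790 bp in the control (chr6:135372852-135378641), 5248 bp with hairpin 1 and 4966 bp with hairpin 2, at percentiles 72.4, 65.4 and 75.5. Neither promoter was missing from any list, and the differences between libraries lay mainly outside them.

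The 126 kb between the start sites of HBS1L and MYB held 4 regions away from both promoters. They covered 14450 bp in the control, 17798 bp with hairpin 1 and 8616 bp with hairpin 2, so the hairpins lay on opposite sides of the control. The region 106.6 kb upstream of MYB covered 4390, 4164 and 1477 bp, and the one 95 kb upstream 6667, 6212 and 4103 bp. Both lie in introns of longer HBS1L transcripts, outside the canonical one, and were narrowest in hairpin 2. The region 71 kb upstream (chr6:135430764-135432201) had 0 bp in the control, 1438 bp with hairpin 1 and 0 bp with hairpin 2. Its hairpin 1 peak stood at percentile 31, and the nearest peak to that position was 20630 bp away in the control and 22846 bp with hairpin 2. The region 34.5 kb upstream covered 3393 bp in the control, 5984 bp with hairpin 1 and 3036 bp, as 2 peaks, in hairpin 2. No list had a peak within 1 kb of the position 84 kb upstream, the other best-known element of this interval.

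**Figure D3:**
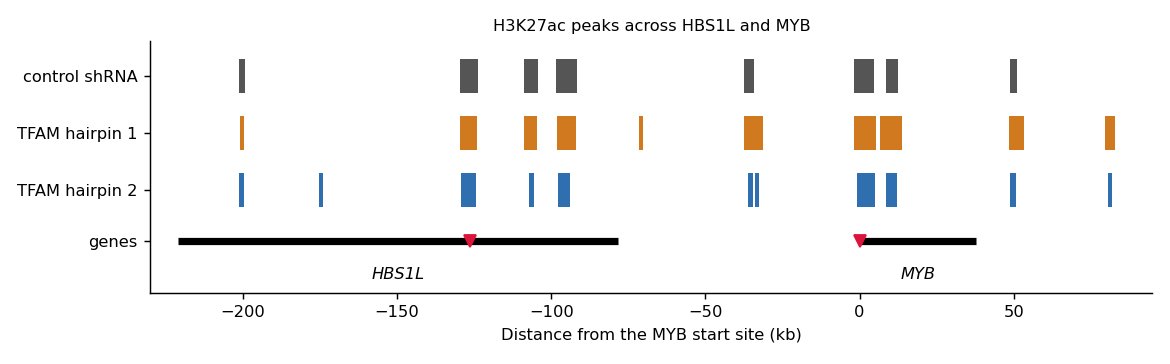
Peaks of each library (bars, 1 row per library) across HBS1L and MYB, by distance from the MYB start site in kb, with gene bodies as black bars and canonical start sites as red triangles. The peak 71 kb upstream of MYB is in hairpin 1 alone, and the region 34.5 kb upstream is widest there.

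Inside and beyond MYB, 3 regions were widest in hairpin 1. A region over exons of MYB, centred 10.2 kb from the start site, covered 3966, 6824 and 3553 bp. One 50.9 kb downstream of the start site covered 2269, 4988 and 1934 bp. An intergenic region 81.3 kb downstream (chr6:135582043-135585431) was gained, with 0 bp in the control, 3389 bp with hairpin 1 and 1360 bp with hairpin 2. It stood at percentile 27.1 of hairpin 1 and 26.4 of hairpin 2. In the joined window of 359 kb, covered sequence was 35125 bp in the control, 46752 bp with hairpin 1 and 29367 bp with hairpin 2, or 1.33 and 0.836 times the control. No single order of the libraries held over all regions: the control was the widest at 106.6 and 95 kb upstream, and hairpin 2 was above it at 81.3 kb downstream.

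LIN28B was the gene of the set with a start site peak in both hairpins and none in the control. Within 5 kb of it the control had 0 bp, hairpin 1 7967 bp (chr6:105400297-105408263) and hairpin 2 5134 bp (chr6:105402998-105408131). The nearest control peak was 14822 bp away. The hairpin 1 peak stood at percentile 18.7 and the hairpin 2 peak at 42.7. The hairpin 1 peak is among the 0.991% of that list of 7 kb or more. Peaks of that width had median score percentiles of 26.6 in the control, 26.7 in hairpin 1 and 32.8 in hairpin 2. Without peaks of that width LIN28B was marked in hairpin 2 alone and so was no longer gained. The lists end below 9 kb in width, and whether broader peaks were removed before deposit is not given in the sources used here, so the 0 bp of the control does not show an unmarked start site.

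The other regions of LIN28B were small. One lay 15.3 kb upstream of the canonical start site, near that of a longer transcript 16.2 kb upstream, and covered 805 bp in the control, 740 bp with hairpin 1 and 0 bp with hairpin 2. With the start sites of all transcripts, LIN28B therefore had a promoter peak in every list. A region in intron 2, 16.6 kb downstream, was in all lists, with 1987, 1873 and 1768 bp, at percentiles 39.4, 7.06 and 35.0. A peak of 528 bp in intron 2 was in hairpin 1 alone, and one of 495 bp in intron 3 in the control alone.

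**Figure D4:**
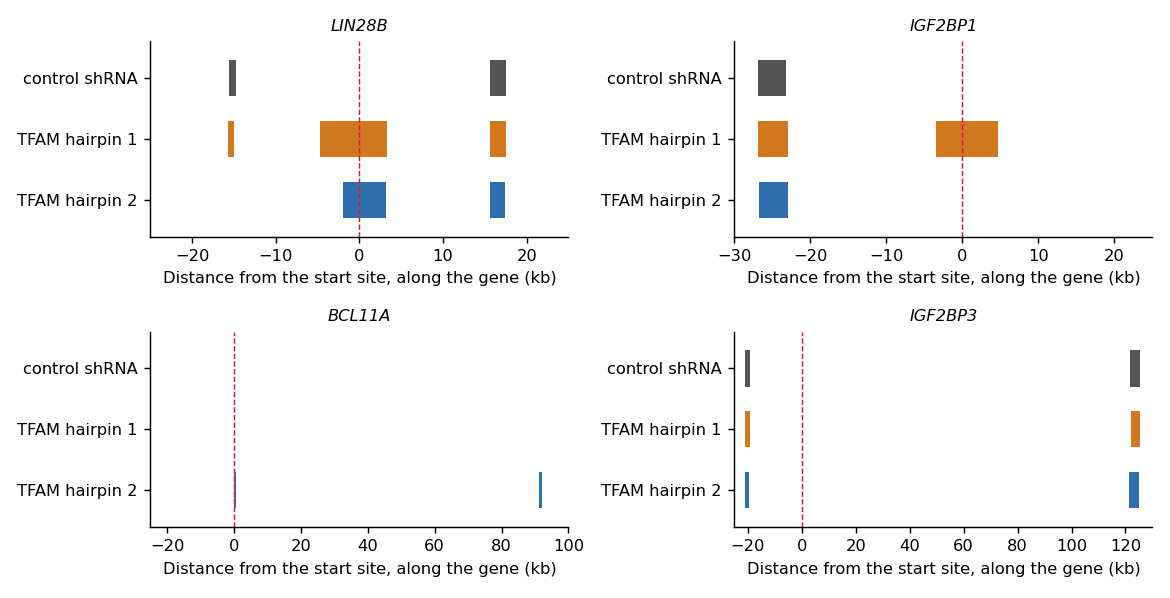
Peaks of each library (bars, 1 row per library) around the start sites of LIN28B, IGF2BP1, BCL11A and IGF2BP3, by distance along the gene in kb, with the canonical start site as a dashed line. A peak crosses the LIN28B start site in both hairpins, that of IGF2BP1 in hairpin 1 alone and that of IGF2BP3 in no library.

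The IGF2BP genes, the RNA-binding proteins of the set, did not share a pattern. IGF2BP1 had no promoter peak in the control or in hairpin 2, and one of 8176 bp with hairpin 1 (chr17:47071292-47079467, percentile 22.4). The nearest peaks to its start site were 23189 bp away in the control and 22971 bp with hairpin 2, in an intergenic region 24.9 kb upstream with 3731, 4019 and 3833 bp. A region 78.8 kb downstream of the start site had 647 bp in the control, 0 bp with hairpin 1 and 3449 bp with hairpin 2. A region over exons of the neighbouring gene GIP, 35.8 kb upstream of the start site, had 2010 bp in hairpin 2 alone (percentile 39.2). The hairpin totals of IGF2BP1 were therefore made in part of different regions.

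IGF2BP2 had a promoter peak in every list, of 7057 bp in the control (chr3:185537366-185544422), 4688 bp with hairpin 1 and 4778 bp with hairpin 2. It was the widest in the control, and stood at percentiles 42.7, 78.9 and 80.7 of the lists. A region in intron 2, 10.9 kb from the start site, covered 5753, 3708 and 5878 bp, and another 120.6 kb from it 2036, 1950 and 2229 bp. The remaining 4 regions of the gene were 579 to 1296 bp wide and in 1 or 2 lists.

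IGF2BP3 had no peak within 19235 bp of its canonical start site in any list. The only listed region inside the gene lay 123.4 kb downstream, covered 3818, 3480 and 3695 bp, and crosses 4 annotated start sites of shorter transcripts. It was at percentile 81.6 of the control, 59.3 of hairpin 1 and 62.1 of hairpin 2. An intergenic region 20.2 kb upstream had 1905, 1910 and 1748 bp. The window also takes in the promoter of MALSU1, a factor of mitochondrial ribosome assembly, with 2123, 2043 and 2448 bp.

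Over whole windows, 2 of the 7 genes with control coverage, LIN28B and IGF2BP1, had at least 1.5 times the covered sequence in both hairpins. Over 16488 protein-coding gene windows of the same kind this held for 7.70%. LIN28B had 3287 bp in the control, 11108 bp with hairpin 1 and 6902 bp with hairpin 2, ratios of 3.38 and 2.10. A ratio that high was reached by 0.837% of all gene windows in hairpin 1 and 6.58% in hairpin 2. IGF2BP1 had 4378, 12195 and 9292 bp, ratios of 2.79 and 2.12. In both genes the call ended when the 10 kb around the start site was left out, with ratios of 0.956 and 0.538 for LIN28B and of 0.918 and 2.12 for IGF2BP1. It also ended without peaks of 7 kb or more, where the hairpin 1 ratios were the same 0.956 and 0.918. With only the 50% of peaks that scored higher in each list, IGF2BP1 had 1.08 in hairpin 1 and LIN28B had no peak left. The part of peak width in these results was not tested.

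The other genes stayed closer to the control. ZBTB7A had ratios of 1.31 and 1.21, MYB 1.74 and 0.973, HBS1L 1.10 and 0.745, IGF2BP2 0.661 and 0.916, and IGF2BP3 0.859 and 0.912. With only the higher-scoring peaks, HBS1L had 0.430 and 0.407, and MYB 0.800 in hairpin 1, on the other side of the control. Without peaks of 7 kb or wider, which took out a promoter peak of each gene, ZBTB7A had 0.746 in hairpin 2, and IGF2BP2 had 1.15 and 1.60. The windows of HBS1L and MYB overlap and share the region 34.5 kb upstream of MYB. None of the 7 was at least 1.5 times lower in both hairpins, where the share over all genes was 3.17%. The median ratio of the 7 was 1.31 in hairpin 1 and 0.973 in hairpin 2, beside 1.07 and 1.17 over all genes. Hairpin 1 was above and hairpin 2 below the control for 2 of the 7, MYB and HBS1L, and for 10.3% of all genes.

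**Figure D5:**
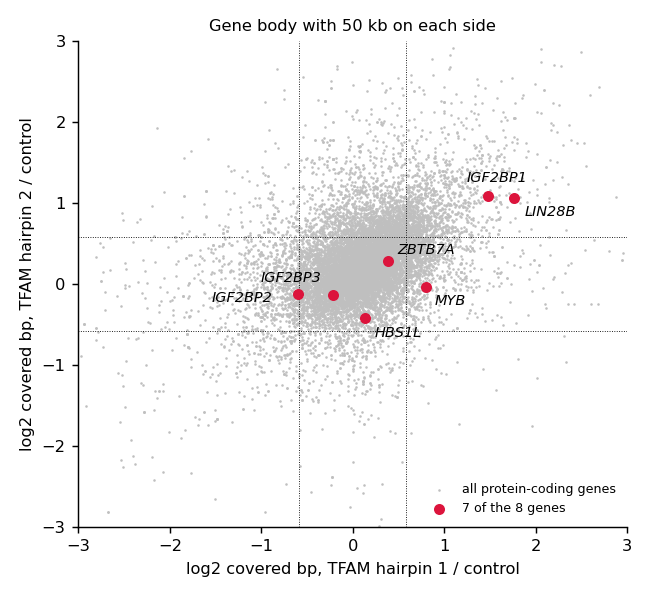
Log2 ratio of covered sequence to the control in hairpin 1 (horizontal) and hairpin 2 (vertical) for gene bodies with 50 kb on each side, with all protein-coding genes in grey, 7 of the 8 genes in red and dotted lines at 1.5-fold. LIN28B and IGF2BP1 lie past 1.5-fold in both hairpins; BCL11A has no control coverage, and 48 genes beyond the axes and 688 with no coverage in a hairpin are not drawn.

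Counted as regions, 20 of the 41 were in all lists, 3 were gained and 4 lost, 5 were in hairpin 1 alone, 5 in hairpin 2 alone, 2 were absent from hairpin 1 only and 2 from hairpin 2 only. The shares over all 33834 regions were 49.9%, 5.91%, 7.05%, 9.71%, 16.0%, 7.21% and 4.29%. The 7.32% gained and 9.76% lost stand beside 5.91% and 7.05% of all regions. The 41 regions sit in a few loci and are not independent draws. No interval is given, and no difference from those shares is claimed. The 3 gained regions were the LIN28B promoter, the region 81.3 kb downstream of MYB and the one 22.5 kb upstream of ZBTB7A. The 4 lost ones were short peaks of 495 to 806 bp. They lay in LIN28B intron 3, in IGF2BP2 intron 2, over an exon of GPNMB beside IGF2BP3, and near PIAS4 beside ZBTB7A. The one near PIAS4 (chr19:3999100-3999726, percentile 3.37) starts just after a peak listed in hairpin 1 alone (chr19:3998486-3999077, percentile 1.30). With peaks within 1 kb merged, 3 were lost. In the 20 shared regions, 10 were wider than the control in hairpin 1 and 8 in hairpin 2, against 55.2% and 63.7% of all 16871 shared regions. The median log2 width ratio was -0.03 in hairpin 1 and -0.14 in hairpin 2, beside 0.05 and 0.12.

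The loci differed in base composition. The median G+C content was 57.4% in the 8 regions of ZBTB7A and 38.0% in the 11 of HBS1L and MYB, beside 48.6% in all regions. GATAA was found 2.24 times per kb in the HBS1L and MYB regions, 0.588 times in those of ZBTB7A and 1.47 times in all, and CCACCC 0.619, 3.36 and 1.20 times. GATAA is an A+T-rich word and CCACCC a G+C-rich one, and the part of base composition in these counts was not tested. In the whole series the lost regions had a median of 40.8% G+C and the gained ones 50.5%.

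The partners of these regulators were mostly marked in every library. Of 33 corepressor and other gamma-globin regulator genes, 27 had a promoter peak in all lists, 0 gained and 0 lost one, beside 50.3%, 1.53% and 0.829% of all genes. The counts of 0 are near those shares. NFIA, a factor of erythroid differentiation, had 3690 bp near its start site in the control, 0 bp with hairpin 1 and 4877 bp with hairpin 2. IKZF1 (Ikaros) had 6179, 6534 and 0 bp, and HIC2, a repressor of BCL11A, had 6367, 6442 and 0 bp. Of all protein-coding promoters, 1.34% were absent from hairpin 1 only and 1.21% from hairpin 2 only. SOX6, KLF1 and GATA1 had no promoter peak in any list. Median coverage within 5 kb of the start site was 3433, 3371 and 3471 bp, beside 1368, 1493 and 1548 bp over all genes. Of the 33 windows 3 had 1.5 times the control coverage or more in both hairpins, beside the 7.70% of all genes, and 0 were lower by as much. These were the NuRD subunits GATAD2A (ratios of 1.52 and 1.57) and RBBP4 (1.56 and 1.75) and the corepressor NCOR1 (1.71 and 2.78), named after their values were seen.

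Of 14 genes of let-7 processing and let-7 targets, 10 had a promoter peak in all lists and 2 lost theirs in both hairpins, beside 0.829% of all genes. LIN28A, the paralogue of LIN28B, had 848 bp in the control and 0 bp in both hairpins. DGCR8, the partner of DROSHA in microRNA processing, had 5740 bp in the control and 0 bp in both. Over whole windows, hairpin 1 and hairpin 2 had 0.921 and 1.33 times the control for LIN28A, and 1.04 and 1.19 for DGCR8. A missing promoter peak does not show that these start sites were unmarked. HMGA2 and IGF2 had no promoter peak in any list. Median coverage near the start site was 2359 bp in the control, 2337 bp with hairpin 1 and 2475 bp with hairpin 2. None of the 12 windows with control coverage had 1.5 times more or less in both hairpins, where 7.70% of all genes were higher and 3.17% lower.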

How the data were processed

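H3K27ac ChIP-seq peak lists of 3 K562 libraries (control shRNA, TFAM hairpin 1, TFAM hairpin 2; groups from the titles) were used. Reads with exactly 1 place in hg19 were kept and libraries were made with a NEBNext kit, per the labels' protocols. Per the submitters' processing notes, Bowtie 0.12.7, Picard and the hg19 build are named without roles; the caller carries a MACS prefix per the peak names, and its version, threshold and use of the input are not given in the sources used here. Each peak's score is the authors' deposited value and served only for ranks inside its own list. The input library was not analysed here.

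Peaks were joined on 1 bp of overlap, and covered bp were summed per region and window. Genes and canonical start sites came from GENCODE release 44 on GRCh37, the build of the files, and sequences from its genome. The sequence of 1 of the 8 promoters is not reported here. Of 33834 regions, 36 on chromosome Y without sequence were left out of composition. The 8 genes, the gene lists, the windows and the naming rule (all 8 genes, genes with a marked promoter in their windows, list genes whose promoter lists differ) were chosen with earlier results of these data known. With 1 library per group no test was possible, and values stand beside the same measure over all genes or regions. Alternatives covered score, list length, overlap, window, promoter, fold, peak width and each hairpin alone. Region classes were tested on simulated lists, and covered bp of the control peaks against a base-by-base count in 200 random gene windows. Both came out exactly. The work was done in Python 3.11.15 with pandas 2.3.3, numpy 2.4.6, matplotlib 3.10.9 and SciPy 1.17.1.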

Additional observations from a re-analysis of the deposited data

How the results depend on the processing

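With 1 library per condition, a difference between lists cannot be told apart from depth, ChIP efficiency or peak calling, and an absent peak does not show an unmarked site. Leaving out peaks of 7 kb or wider and leaving out the 10 kb around the start site were chosen after seeing the data.

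The count of 4 promoters in all lists was 1 without peaks of 7 kb or wider. The 1 gained promoter (LIN28B) became 0 with the start sites of all transcripts, where 2 genes in place of 4 lacked a control peak; it was 2 with hairpin 1 alone and 2 with hairpin 2 alone. In the higher-scoring 50% of each list LIN28B had no promoter peak in any library and the 1 gained promoter was that of IGF2BP2. Without peaks of 7 kb or wider the gained promoter was again that of IGF2BP2, whose control peak was left out, and LIN28B kept a peak in hairpin 2 alone. The counts of regions in all lists, gained and lost (20, 3 and 4) were 9, 1 and 2 in the higher-scoring 50%. With windows of 10 kb on each side 1 was gained and 2 were lost, and each hairpin alone had 8 without a control peak. The 2 windows higher in both hairpins became 0 in the higher-scoring 50% and 0 without peaks of 7 kb or wider. They also became 0 without the 10 kb around the start site. With 10 kb windows 1 was left, LIN28B, because IGF2BP1 had no control coverage there and so no ratio. The 0 lower windows became 1 (HBS1L) in the higher-scoring 50% and 1 with hairpin 1 alone.

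Of 78 recomputed ratios of single genes, 16 moved to the other side of the control. Of these, 7 had been 1.5-fold or more from it with all peaks: MYB, LIN28B, IGF2BP1 and IGF2BP2 as follows. MYB in hairpin 1 was 0.800 in the higher-scoring 50%. Without peaks of 7 kb or wider, hairpin 1 gave 0.956 for LIN28B, 0.918 for IGF2BP1 and 1.15 for IGF2BP2. Without the 10 kb around the start site, LIN28B gave 0.956 and 0.538 in the hairpins and IGF2BP1 0.918 in hairpin 1. The last 2 settings leave out promoter peaks by construction. In the higher-scoring 50%, hairpin 1 kept only the promoter peak in the MYB window. Its peaks 34.5 kb upstream and 10.2, 50.9 and 81.3 kb downstream stood at percentiles 38.2, 20.1, 34.3 and 27.1. The control kept its promoter peak and the one 50.9 kb downstream (percentile 61.9). Why the scores differed was not tested. No paired analysis was possible because each group has 1 library.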
